A study of Mus musculus with 16 samples.

Results

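HuR, the protein made from Elavl1, binds AU-rich and U-rich stretches of mRNAs and is best known for keeping its targets stable. The data described here are the brown fat (BAT) libraries of a mouse study of fat without HuR, 4 of its 16 RNA-seq libraries. Of these, 2 were labelled control (Ctrl) and 2 HuR knockout (HuR-FKO). The HuR-FKO mice carried AdipoQ-Cre and 2 floxed copies of HuR (AdipoQ-Cre;HuR f/f), and the Ctrl mice were littermates with the floxed copies and no Cre (HuR f/f). The floxed line had been crossed back to C57BL/6 for 2 generations, and the labels give all mice an age of 12 weeks. Each library held RNA pooled from 3 animals, so the spread between 2 libraries is the spread between pools, and p-values measure that spread. The adiponectin promoter drives Cre in adipocytes, so vessel, immune, nerve and muscle cells of the same bulk tissue keep the gene. The remaining 12 libraries came from epididymal (eWAT) and inguinal (iWAT) white fat, with 3 Ctrl and 3 HuR-FKO each.

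Brown fat burns fatty acids and glucose to make heat, mainly through the uncoupling protein Ucp1 in its dense mitochondria. Its adipocytes and skeletal muscle fibres arise from a shared Myf5-positive lineage in the embryo, and factors such as Prdm16 and Ebf2 direct cells to the brown fat fate. The comparison of HuR-FKO with Ctrl asks which transcripts of this tissue differ when its adipocytes are meant to lack HuR.

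The targeted gene comes first. Elavl1 (chr8:4285382-4325413, minus strand, mm10) stood at 8.34 and 7.36 FPKM (fragments per kilobase of transcript, scaled to library size) in the Ctrl libraries and at 8.98 and 8.17 FPKM where the label reads HuR-FKO. Values are given in this order, library 1 then library 2, from here on. Both groups overlapped, and the log2 fold change (difference of the mean log2(FPKM + 1), HuR-FKO minus Ctrl) was 0.11 ± 0.15 (SE, n = 2 libraries per group, as for every fold change here), with a limma adjusted p of 0.858. The ratio of HuR-FKO to Ctrl was 1.08, with a 95% interval of 0.84 to 1.395. In eWAT the 3 Ctrl libraries had 12.2 to 13.8 FPKM and the 3 HuR-FKO libraries 13.3 to 15.4 FPKM, and in iWAT these ranges were 12.4 to 15.8 and 13.9 to 16.5 FPKM. Gene-level FPKM of bulk tissue thus did not show the deletion, which the study checked by real-time PCR and western blot, assays not analysed here, and every direction below is that of libraries labelled HuR-FKO against libraries labelled Ctrl. The neuronal paralogs Elavl2, Elavl3 and Elavl4 were at or below 0.164 FPKM in all 4 BAT libraries. Among the other AU-rich element binding proteins, 16 were tested, 8 were higher and 8 lower, and Tial1, a stress granule protein, had the smallest p at 24.6 and 27.6 FPKM in Ctrl and 20.1 and 20.3 FPKM in HuR-FKO (log2 fold change -0.35, limma adjusted p = 0.501).

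The 4 libraries were alike in depth, estimated at 16700000 to 17800000 fragments from the steps of low values in long single-transcript genes (72.9% to 81.6% of 87 to 121 such values lay within 0.05 on the log2 scale of a whole step), and 10442 to 10784 protein-coding genes exceeded 1 FPKM in each. The tissue label held against its defining markers: all 9 brown adipocyte markers were above 1 FPKM in all 4 libraries except Lhx8, at 0.840 FPKM in HuR-FKO 2, with summed levels of 6653 to 9551 FPKM. Markers of mammary and salivary epithelium and of mesothelium summed to 0.268 FPKM or less. Transcripts of the mitochondrial genome made up 39.2% and 37.7% of the summed protein-coding FPKM in Ctrl and 43.7% and 44.5% in HuR-FKO. Of these, mt-Co1, mt-Co3, mt-Atp6 and mt-Atp8 were listed at 0 in all 4 BAT libraries and at 8322 FPKM or more in all 12 white fat libraries, so a 0 in this table can be a failed estimate.

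Genes with a group mean above 1 FPKM numbered 10944. None passed a Benjamini-Hochberg adjusted p of 0.05 in limma (0% of genes tested), where the smallest adjusted p was 0.198, shared by 8 genes. At a nominal (unadjusted) p under 0.05, 316 genes were higher in HuR-FKO (2.89% of those tested) and 739 lower (6.75%). Over all genes, 4547 were higher and 6397 lower, and the median log2 fold change was -0.05. Both HuR-FKO libraries lay above both Ctrl libraries for 1619 genes (14.8%) and below both for 2912 (26.6%). When the libraries were rescaled by their median ratio, 446 genes were higher and 541 lower at a nominal p under 0.05, so the excess of lower genes depended in part on the scaling. A fit of all 16 libraries shares one estimate of the spread among the 3 depots, which rests mostly on white fat. For a gene low in white fat, that estimate need not match the spread between brown fat pools. The 16-library fit placed 26 genes higher (0.238%) and 45 lower (0.411%) at an adjusted p under 0.05. Leaving out Ctrl 2 gave 136 genes under that threshold, and leaving out any other library 0 to 2. Counts below are read against these shares. Since no gene passed the main test, higher and lower describe measured values, and a gene named as passing did so in the 16-library fit.

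The plot of log2 fold changes by gene list shows which groups of genes lay away from the rest. Among the 18 lists drawn there, the 3 lists of skeletal muscle genes had the lowest medians, from -1.21 to -1.09, followed by sterol synthesis at -0.42 and fatty acid synthesis at -0.28. At the other end stood red cell genes at 0.48, interferon-stimulated genes at 0.37 and mitochondrially encoded subunits at 0.28. Nuclear-encoded subunits of complex I and of complexes III to V, with 37 tested in each list, had medians of -0.04. These turned with the Ctrl pool used, to 0.17 and 0.13 without Ctrl 1 and to -0.25 and -0.22 without Ctrl 2.

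**Figure D1:**
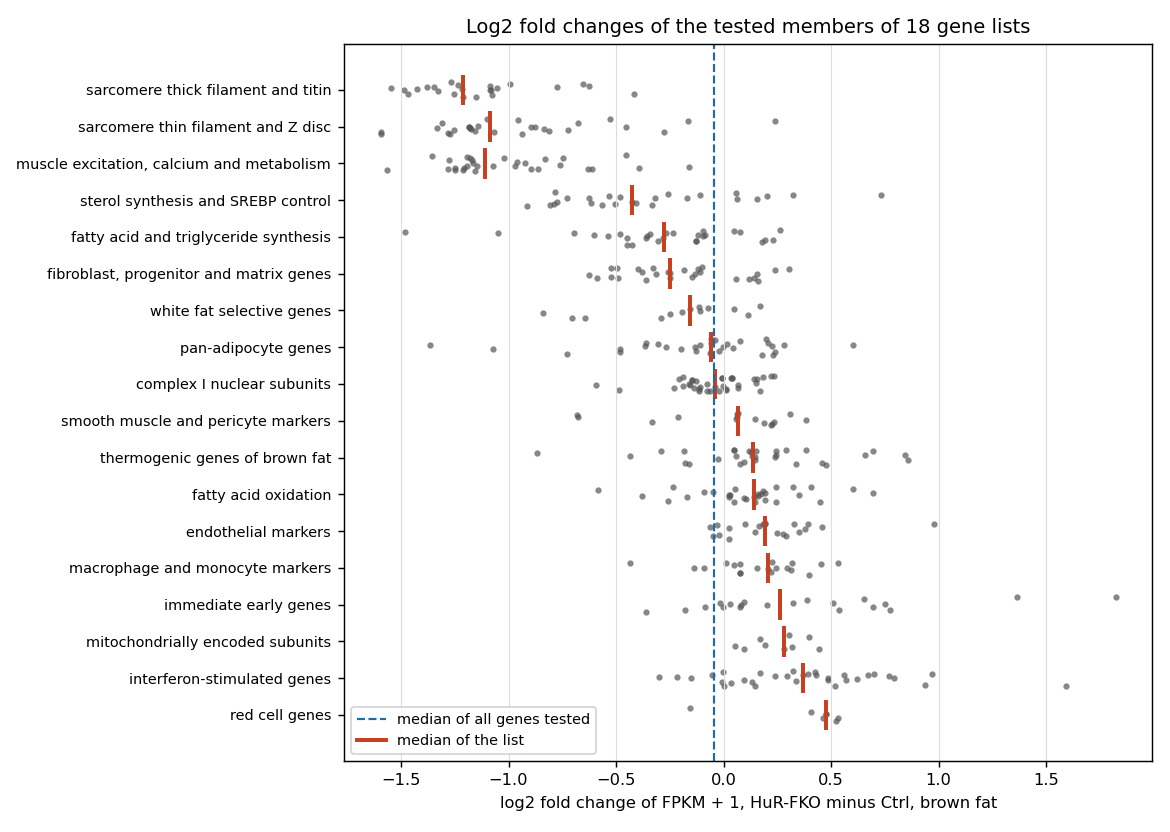
Log2 fold change of FPKM + 1 (HuR-FKO minus Ctrl) in brown fat on the x axis for the tested members of 18 gene lists, 1 row per list. Each point is a gene, each red bar the median of its list, and the dashed line the median of all 10944 genes (-0.05). The medians run from -1.21 for thick filament genes to 0.48 for red cell genes.

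Skeletal muscle transcripts were lower in HuR-FKO brown fat. Across the 3 muscle lists (thick filament and titin, thin filament and Z disc, excitation with calcium handling and metabolism) 81 members were tested, and 80 of them were lower, the median log2 fold change being -1.14. In 73 of the 81 both HuR-FKO libraries fell below both Ctrl libraries, and 62 had a nominal p under 0.05, against 26.6% and 6.75% of all genes. Members of a list can vary together between pools, so such counts, here and for the lists below, are not independent observations. Only Trim63, a muscle ubiquitin ligase, was higher, at 6.34 and 2.54 FPKM in Ctrl and 3.21 and 7.61 FPKM in HuR-FKO with overlapping groups. Dmpk and Tnni1 were among the 3 that passed in the 16-library fit. The plot of muscle genes by library shows the 4 values behind 24 of these genes.

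**Figure D2:**
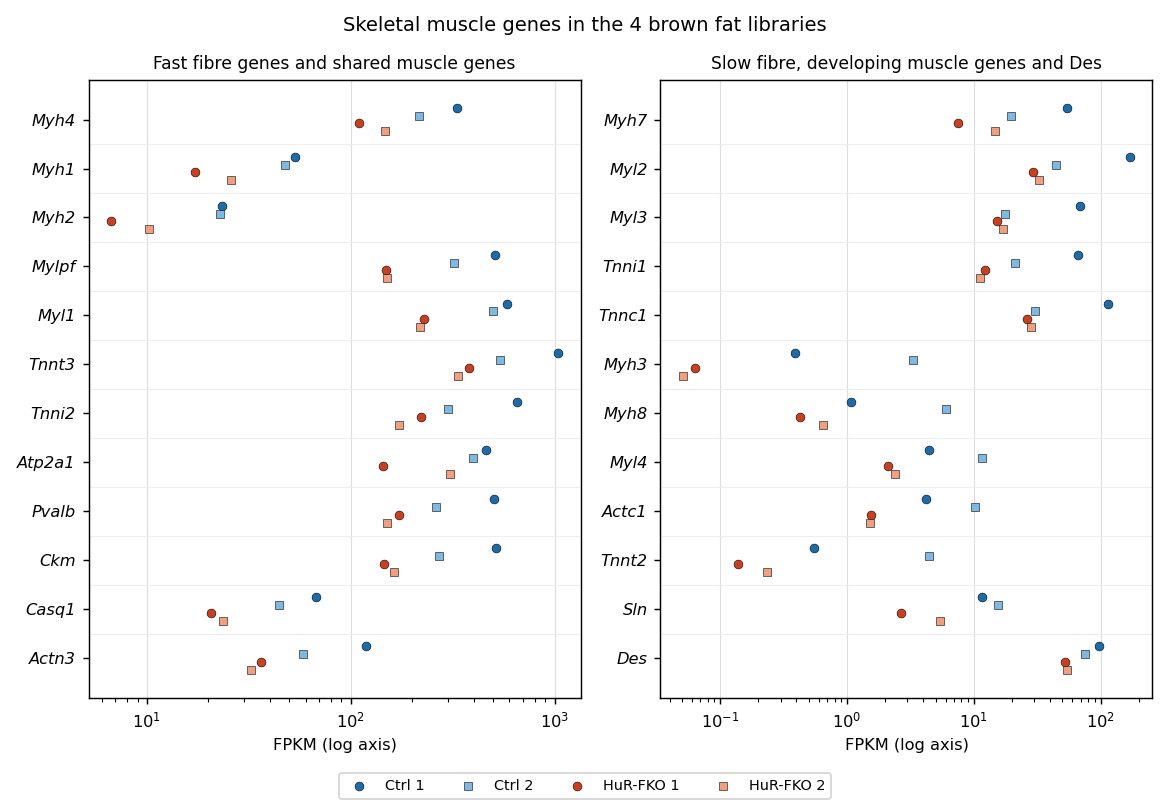
FPKM on a log axis for 24 skeletal muscle genes in the 4 brown fat libraries, circles for library 1 and squares for library 2, blue for Ctrl and red for HuR-FKO. For each of the 24 genes both HuR-FKO libraries lie to the left of both Ctrl libraries, while the gap between the Ctrl libraries differs between genes, as for Myl2 at 171 and 44.7 FPKM.

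Myosin and its partners form the thick filament that pulls muscle fibres short. All 23 genes of that list were lower. Myl1, an essential light chain of fast fibres (chr1:66924295-66945404), had 582 and 499 FPKM in Ctrl and 229 and 218 FPKM in HuR-FKO. Its groups stood far apart relative to the gap between replicates (log2 fold change -1.27 ± 0.14, limma adjusted p = 0.198), and the ratio was 0.416 with a 95% interval of 0.329 to 0.526. Mylpf, the regulatory light chain of fast fibres, had 508 and 321 FPKM in Ctrl and 149.6 and 149.7 FPKM in HuR-FKO (-1.43 ± 0.23, limma adjusted p = 0.275). The heavy chain of fast oxidative fibres, Myh2, had 23.3 and 22.9 FPKM in Ctrl and 6.66 and 10.2 FPKM in HuR-FKO (-1.38 ± 0.21, limma adjusted p = 0.275), and Myh1, of the neighbouring fibre type, 53.1 and 47.6 FPKM in Ctrl and 17.2 and 25.97 FPKM in HuR-FKO (-1.21 ± 0.22). For Myh4, the heavy chain of the fastest fibres and the most abundant by FPKM, the values were 333 and 216 FPKM in Ctrl and 109 and 147 FPKM in HuR-FKO (-1.07 ± 0.25). These chains are close copies of one another in one gene cluster, so reads could be split among them with error. The M-band and myosin-binding genes followed. Mybpc1, a myosin-binding protein, had 62.5 and 35.8 FPKM in Ctrl and 13.7 and 19.2 FPKM in HuR-FKO (-1.49), Myom2, an M-band protein, 22.4 and 13.4 FPKM in Ctrl and 6.66 and 6.96 FPKM in HuR-FKO (-1.23), Myom1 16.7 and 11.9 FPKM in Ctrl and 5.47 and 7.197 FPKM in HuR-FKO (-1.05) and the unconventional myosin Myo18b 4.29 and 3.099 FPKM in Ctrl and 1.22 and 1.46 FPKM in HuR-FKO (-0.995). All of these were separated between the groups.

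Thin filament and Z disc genes were lower in 27 of 28 cases, with a median of -1.09 and 21 at a nominal p under 0.05. The 3 genes of smallest p were Myot, a Z disc protein, at 33.5 and 20.8 FPKM in Ctrl and 10.5 and 12.1 FPKM in HuR-FKO, Tcap, which caps titin, at 198 and 121 FPKM in Ctrl and 64.5 and 74.9 FPKM in HuR-FKO, and Tpm1, a tropomyosin, at 333 and 232 FPKM in Ctrl and 158 and 140.5 FPKM in HuR-FKO. Their log2 fold changes were -1.16, -1.14 and -0.90, and none of their groups overlapped. The most abundant member was Tnnt3, the fast troponin T, at 1040.1 and 537 FPKM in Ctrl and 378 and 334 FPKM in HuR-FKO (-1.07 ± 0.32), where Ctrl 1 exceeded Ctrl 2 by more than Ctrl 2 exceeded HuR-FKO. Des, the intermediate filament desmin that ties Z discs together, was lower by less, at 96.9 and 75.9 FPKM in Ctrl and 52.2 and 54.5 FPKM in HuR-FKO (-0.68 ± 0.16, limma adjusted p = 0.361). Tnni1, the slow troponin I, had 66.2 and 21.1 FPKM in Ctrl and 12.2 and 11.3 FPKM in HuR-FKO (-1.60 ± 0.50, limma adjusted p in the 16-library fit = 0.0475), with the highest value in Ctrl 1. Its SE is from the brown fat libraries alone, whereas that p also uses the spread in white fat. Slow fibre isoforms together summed to only 3.30 to 9.33 FPKM in the white fat libraries, so this p understates the spread between the Ctrl pools.

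All 30 genes of excitation, calcium handling and muscle metabolism were lower, with a median of -1.11, and 24 had a nominal p under 0.05. Dmpk, the kinase whose repeat expansion causes myotonic dystrophy, was at 31.8 and 27.8 FPKM in Ctrl and 15.1 and 16.7 FPKM in HuR-FKO (-0.86 ± 0.14, adjusted p in the 16-library limma fit = 0.0424). Its replicates were close in both groups. Casq1 stores calcium in the sarcoplasmic reticulum of fast fibres and was at 67.5 and 44.6 FPKM in Ctrl and 20.6 and 23.5 FPKM in HuR-FKO (-1.28 ± 0.22, limma adjusted p = 0.322). The muscle creatine kinase Ckm had 517 and 270.5 FPKM in Ctrl and 145 and 163 FPKM in HuR-FKO (-1.28 ± 0.31), and myoglobin, Mb, 209 and 114 FPKM in Ctrl and 63.2 and 65.7 FPKM in HuR-FKO (-1.25 ± 0.29). Sarcolipin, Sln, which uncouples the calcium pump, was at 11.5 and 15.5 FPKM in Ctrl and 2.66 and 5.47 FPKM in HuR-FKO (-1.56 ± 0.31). The calcium pump Atp2a1 itself was at 458 and 399.6 FPKM in Ctrl and 144 and 306 FPKM in HuR-FKO (-1.02 ± 0.35), the HuR-FKO libraries differing from each other by more than the Ctrl libraries did. An exception in size was Cox8b, a cytochrome oxidase subunit of both muscle and brown fat, at 4291 and 2755 FPKM in Ctrl and 3247 and 2908 FPKM in HuR-FKO (-0.16) with overlapping groups. Because its level comes from both tissues, it was left out of the sums below.

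A set of muscle genes had been picked for real-time PCR on this comparison, so their count is not independent evidence of the direction. All 10 were lower without overlap, with a median of -1.22 and each at a nominal p under 0.05. Among them Actc1, the cardiac actin that is also made in developing muscle, showed the lowest fold change at 4.196 and 10.3 FPKM in Ctrl and 1.55 and 1.52 FPKM in HuR-FKO (-1.59 ± 0.37).

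Muscle fibre types were not represented alike in the Ctrl libraries. Isoforms of fast fibres (12 genes), slow fibres (8 genes) and developing or cardiac muscle (7 genes) were grouped after their values had been seen. Fast isoforms summed to 4569 and 2547 FPKM in Ctrl and to 1516 and 1558 FPKM in HuR-FKO. Slow isoforms summed to 611 and 183 FPKM in Ctrl and to 121 and 137 FPKM in HuR-FKO, so that Ctrl 1 stood above the other 3 libraries. Developing and cardiac isoforms summed to 22.7 and 51.9 FPKM in Ctrl and to 7.18 and 10.6 FPKM in HuR-FKO, and here Ctrl 2 stood highest. Single genes followed these sums. Myh7, the slow heavy chain, was at 54.2 and 19.7 FPKM in Ctrl and 7.53 and 14.7 FPKM in HuR-FKO, and Myl2, the slow regulatory light chain, at 171 and 44.7 FPKM in Ctrl and 29.5 and 32.7 FPKM in HuR-FKO. Myh3 and Myh8, the embryonic and perinatal heavy chains, were at 0.391 and 3.34 FPKM in Ctrl and 0.063 and 0.051 FPKM in HuR-FKO and at 1.09 and 6.1 FPKM in Ctrl and 0.424 and 0.653 FPKM in HuR-FKO. Tnnt2, the cardiac troponin T also present in fetal muscle, was at 0.546 and 4.48 FPKM in Ctrl and 0.139 and 0.236 FPKM in HuR-FKO. In each class both HuR-FKO sums lay below both Ctrl sums, whereas the 2 Ctrl pools differed from each other in which class was high.

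The 3 muscle lists without Cox8b made up 1.32% and 0.802% of the summed protein-coding FPKM in Ctrl and 0.436% and 0.450% in HuR-FKO. In bulk tissue, fewer muscle cells and less muscle RNA per cell cannot be told apart. In eWAT the same genes took 0.0815% to 0.0915% in all 6 libraries. In iWAT they took 0.0654% to 0.270% in 5 libraries and 0.932% in Ctrl 3, a white fat pool that lay between the BAT Ctrl pools. The satellite cell markers Pax7, Myf5 and Myod1 summed to 0.624 FPKM or less in every BAT library, and the cardiac markers Nppa and Nkx2-5 were at 0 in all 4. Smooth muscle and pericyte genes had a median of 0.07 over 15 tested, 11 of them higher. At a nominal p under 0.05, 1 of the 15 was higher and 3 lower, against 2.89% and 6.75% of all genes. Skeletal muscle markers themselves summed to 3446 and 2081 FPKM in Ctrl and to 1126 and 1290 FPKM in HuR-FKO, and the part of muscle tissue content in the muscle gene differences was not tested. Without Ctrl 1 the median of the 81 genes was -0.69, and over the 4 libraries left out in turn it ranged from -1.40 to -0.69.

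**Figure D3:**
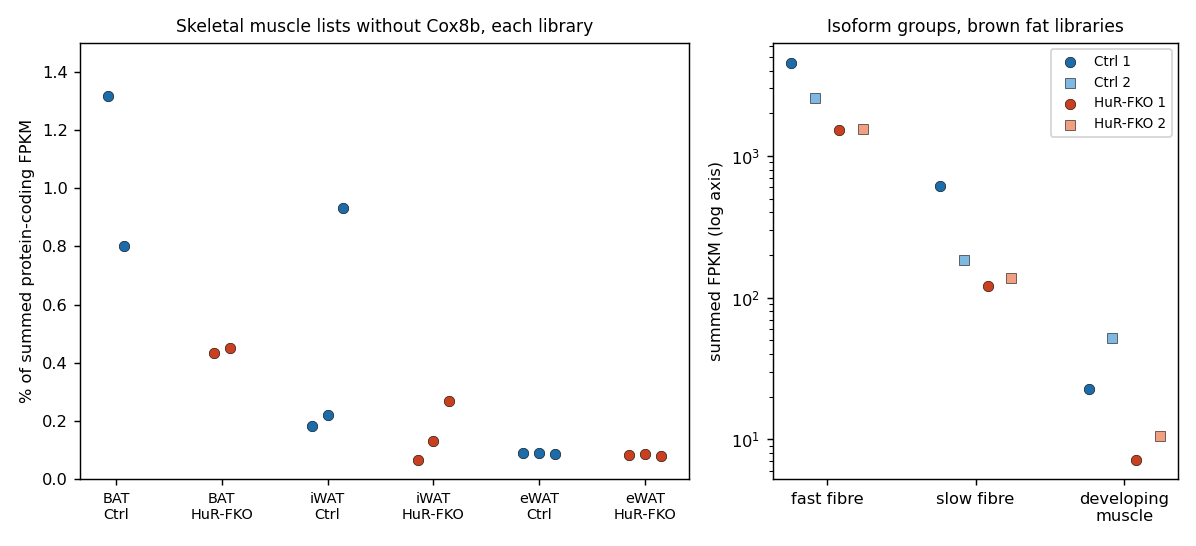
Left, share of summed protein-coding FPKM (%) taken by the 3 muscle lists without Cox8b in each of the 16 libraries, blue for Ctrl and red for HuR-FKO. Right, summed FPKM (log axis) of fast, slow and developing muscle isoforms in the 4 brown fat libraries. BAT Ctrl libraries reach 1.32% and 0.802%, HuR-FKO libraries 0.436% and 0.450%, and 1 iWAT Ctrl library 0.932%. Slow isoforms are highest in Ctrl 1 and developing isoforms in Ctrl 2.

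Factors of the muscle and brown fat lineages were mostly at low FPKM and less far apart. Of 13 tested, 9 were lower and 4 higher, with a median of -0.13 (-0.32 without HuR-FKO 2). Mef2c, which works with the MyoD family in muscle differentiation, was at 5.63 and 5.01 FPKM in Ctrl and 2.87 and 3.17 FPKM in HuR-FKO (-0.65 ± 0.15, limma adjusted p = 0.355). Smyd1, a histone methyltransferase of striated muscle, was at 9.28 and 6.08 FPKM in Ctrl and 4.09 and 4.48 FPKM in HuR-FKO (-0.69 ± 0.22, limma adjusted p = 0.433). For both, the groups did not overlap. Mef2d had 24.1 and 19.8 FPKM in Ctrl and 16.4 and 18.01 FPKM in HuR-FKO (-0.33). On the brown fat side Ebf2 was at 5.61 and 8.67 FPKM in Ctrl and 8.55 and 11.6 FPKM in HuR-FKO (0.46), Prdm16 at 2.97 and 4.02 FPKM in Ctrl and 3.73 and 4.18 FPKM in HuR-FKO (0.15) and Zic1 at 1.61 and 1.97 FPKM in Ctrl and 1.23 and 1.72 FPKM in HuR-FKO (-0.18), each with overlapping groups. Hmgb1, which the study names for brown fat, was at 83.97 and 80.4 FPKM in Ctrl and 80.5 and 69.9 FPKM in HuR-FKO (-0.13, limma adjusted p = 0.816).

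Promoters of muscle genes often hold the E-box CAGCTG, of the kind that MyoD family factors bind in muscle. The 250 bases before the start site of each gene were read from RefSeq (GRCm38.p6) and searched on both strands. CAGCTG, which reads the same on both strands, occurred in 24 of 57 muscle list genes with a sequence (42.1%) and in 14.7% of all 27025 genes. The 3 examples below belong to genes that were lower in both HuR-FKO libraries than in both Ctrl libraries. The sequences run 5′ to 3′ on the gene's strand with the motif in capitals.
Myl1 (chr1:66945057-66945306, minus strand): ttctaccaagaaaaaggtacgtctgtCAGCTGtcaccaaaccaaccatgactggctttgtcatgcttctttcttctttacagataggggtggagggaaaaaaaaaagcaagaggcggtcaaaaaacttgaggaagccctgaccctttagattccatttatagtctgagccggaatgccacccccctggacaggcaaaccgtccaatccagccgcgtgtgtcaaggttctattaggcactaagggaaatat
Mylpf (chr7:127211358-127211607, plus strand): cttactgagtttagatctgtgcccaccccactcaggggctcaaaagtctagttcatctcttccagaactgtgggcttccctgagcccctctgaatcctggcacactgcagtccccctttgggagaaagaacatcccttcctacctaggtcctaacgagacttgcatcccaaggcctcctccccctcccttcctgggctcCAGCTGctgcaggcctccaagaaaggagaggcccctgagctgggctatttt
Casq1 (chr1:172219896-172220145, minus strand): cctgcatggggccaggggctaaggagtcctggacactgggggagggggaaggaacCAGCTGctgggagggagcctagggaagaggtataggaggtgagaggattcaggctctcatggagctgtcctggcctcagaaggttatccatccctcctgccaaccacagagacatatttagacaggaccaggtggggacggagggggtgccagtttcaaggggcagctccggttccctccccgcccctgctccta
A match of letters is a description of the sequence and not a bound site. The TATAAA box was found in 11 of the same 57 genes (19.3%) and in 14.3% of all genes.

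Genes of sterol synthesis were lower in HuR-FKO brown fat. The enzymes of cholesterol synthesis are switched on together by SREBP2 when sterols are low, and Insig1 and Insig2 hold SREBP back in the endoplasmic reticulum. Of 25 tested, 19 were lower, and the median log2 fold change was -0.42, 17 had both HuR-FKO libraries below both Ctrl libraries, and 13 were lower and 1 higher at a nominal p under 0.05. None passed in the 16-library fit. Sqle, squalene epoxidase, was at 15.5 and 14.03 FPKM in Ctrl and 6.43 and 8.38 FPKM in HuR-FKO (-0.91 ± 0.17, limma adjusted p = 0.322). Fdps, which makes farnesyl diphosphate, had 81.7 and 65.5 FPKM in Ctrl and 42.4 and 40.5 FPKM in HuR-FKO (-0.81 ± 0.15), and Pmvk, phosphomevalonate kinase, 93.4 and 77.1 FPKM in Ctrl and 53.5 and 48.4 FPKM in HuR-FKO (-0.73 ± 0.15). Each pair of replicates was closer than the groups were. The later enzyme Nsdhl had 35.4 and 27.9 FPKM in Ctrl and 18.9 and 17.1 FPKM in HuR-FKO (-0.78 ± 0.16). Further lower members, chosen after their values were seen, were Lss (-0.79), Cyp51 (-0.79), Dhcr7 (-0.56), Acat2 (-0.53) and Idi1 (-0.48).

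The Insig genes differed in direction. Insig1, the gene that the study ties to HuR (chr5:28071363-28078662), was at 184 and 194 FPKM in Ctrl and 105 and 144 FPKM in HuR-FKO (-0.62 ± 0.18, limma adjusted p = 0.418), and its groups did not overlap. Its ratio was 0.652, with a 95% interval of 0.475 to 0.894. Insig2, the paralog under different control, was at 11.9 and 13.2 FPKM in Ctrl and 17.8 and 25.7 FPKM in HuR-FKO (0.73 ± 0.20, limma adjusted p = 0.405), and it was the single sterol gene higher at that level. In eWAT the log2 fold change of Insig1 was -0.24 (adjusted p in limma = 0.772) and in iWAT -0.39 (adjusted p in limma = 0.54).

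Fatty acid and triglyceride synthesis genes were lower in 22 of 28 cases, with a median of -0.28 and 9 lower and 0 higher at a nominal p under 0.05. Pnpla3, a lipid droplet protein under SREBP1c and ChREBP, had 162 and 176 FPKM in Ctrl and 65.4 and 54.7 FPKM in HuR-FKO (-1.48 ± 0.14, adjusted p in the 16-library limma fit = 0.00271). Both HuR-FKO values were far below both Ctrl values. In eWAT and iWAT the same gene had log2 fold changes of -0.66 and -0.92, short of the threshold there. Acss2, which makes acetyl-CoA from acetate, was at 361 and 310.4 FPKM in Ctrl and 158 and 165 FPKM in HuR-FKO (-1.05 ± 0.13, limma adjusted p = 0.275), and the desaturase Scd2 at 129 and 127 FPKM in Ctrl and 85.98 and 97.04 FPKM in HuR-FKO (-0.48 ± 0.13). The chain of citrate to fatty acid was lower at several steps. Acly, ATP citrate lyase, had 1062 and 1002 FPKM in Ctrl and 783 and 728 FPKM in HuR-FKO (-0.45), and Scd1, the main desaturase, 7844 and 11190.1 FPKM in Ctrl and 5247 and 6398 FPKM in HuR-FKO (-0.69). Fatty acid synthase, Fasn, overlapped between the groups at 6392 and 4403 FPKM in Ctrl and 4535 and 3765 FPKM in HuR-FKO (-0.36, limma adjusted p = 0.667). The regulators were Mlxipl (ChREBP) at 174 and 135 FPKM in Ctrl and 111 and 90.7 FPKM in HuR-FKO (-0.60, limma adjusted p = 0.425) and Srebf1 at 99.4 and 143 FPKM in Ctrl and 87.5 and 89.9 FPKM in HuR-FKO (-0.42, limma adjusted p = 0.581).

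Promoters of sterol genes are known for CCAAT boxes bound by NF-Y next to SREBP sites. CCAAT, read as ATTGG on the other strand, occurred in the 250 bases before the start of 14 of 18 sterol genes with a sequence (77.8%) and of 37.5% of all 27025 genes. The 3 shown are Insig1 and 2 enzymes of the lower group, with the box in capitals as it reads on the gene's strand (RefSeq, GRCm38.p6). Fdps and Sqle are named only.
Insig1 (chr5:28071162-28071411, plus strand): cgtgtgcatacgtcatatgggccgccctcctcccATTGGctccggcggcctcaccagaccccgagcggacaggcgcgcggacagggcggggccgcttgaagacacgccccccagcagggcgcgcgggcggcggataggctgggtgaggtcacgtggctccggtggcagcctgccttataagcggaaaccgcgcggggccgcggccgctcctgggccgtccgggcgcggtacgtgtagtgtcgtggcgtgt
Nsdhl (chrX:72918271-72918520, plus strand): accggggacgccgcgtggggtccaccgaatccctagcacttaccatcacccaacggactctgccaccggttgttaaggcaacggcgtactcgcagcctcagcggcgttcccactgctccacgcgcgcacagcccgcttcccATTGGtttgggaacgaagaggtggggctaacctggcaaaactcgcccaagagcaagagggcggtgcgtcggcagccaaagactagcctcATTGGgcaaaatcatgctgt
Idi1 (chr13:8885356-8885605, plus strand): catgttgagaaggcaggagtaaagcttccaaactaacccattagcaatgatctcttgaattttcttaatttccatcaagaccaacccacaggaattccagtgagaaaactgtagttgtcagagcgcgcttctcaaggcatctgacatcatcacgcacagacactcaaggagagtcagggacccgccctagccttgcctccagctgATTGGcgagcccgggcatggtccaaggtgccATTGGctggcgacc
Muscle list genes held the box in 18 of 57 cases (31.6%).

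Thermogenic genes as a group were slightly higher. Of 30 tested, 23 were higher with a median of 0.14, and 5 were higher and 1 lower at a nominal p under 0.05. Ucp1 was at 1138 and 685 FPKM in Ctrl and 1165 and 1000.1 FPKM in HuR-FKO, where Ctrl 1 lay within the range of HuR-FKO and Ctrl 2 was lower. Its log2 fold change of 0.29 ± 0.26 did not differ from 0 beyond that spread (limma adjusted p = 0.783), and the 95% interval of its ratio ran from 0.78 to 1.91. Ppargc1a, the coactivator of mitochondrial genes, was at 6.86 and 7.24 FPKM in Ctrl and 6.54 and 9.11 FPKM in HuR-FKO (0.12, limma adjusted p = 0.891). The clearest member was Fabp3, the fatty acid carrier of oxidative tissue, at 385 and 334 FPKM in Ctrl and 641 and 649.98 FPKM in HuR-FKO (0.85 ± 0.13, limma adjusted p = 0.275). Letm1, a mitochondrial inner membrane exchanger, was at 62.5 and 61.3 FPKM in Ctrl and 92.7 and 104 FPKM in HuR-FKO (0.66 ± 0.13) and passed in the 16-library fit (adjusted p in limma = 0.0475). Pdk4, a kinase that inhibits pyruvate dehydrogenase, was at 318 and 276 FPKM in Ctrl and 456 and 635 FPKM in HuR-FKO (0.86 ± 0.19, limma adjusted p = 0.349). In the other direction Cidea, a lipid droplet protein and marker of brown fat, was at 1818 and 1569.8 FPKM in Ctrl and 1326 and 1181 FPKM in HuR-FKO (-0.43 ± 0.14, limma adjusted p = 0.452). The beta-3 adrenergic receptor Adrb3 had 107 and 47.7 FPKM in Ctrl and 50.1 and 29.8 FPKM in HuR-FKO (-0.87), Ctrl 1 being highest. Of 9 brown and pan-adipocyte genes also picked for real-time PCR, 7 were higher and 3 had a nominal p under 0.05, namely Fabp3, Acadm and Pck1. Dgat1 (-0.30) and Fabp4 (-0.06) were lower and Dgat2 (0.23) and Pparg (0.04) higher, all with a nominal p above 0.05.

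Fatty acid oxidation genes were higher in 23 of 30 cases, with a median of 0.14 and 6 higher and 1 lower at a nominal p under 0.05. Acadm, the medium-chain acyl-CoA dehydrogenase, was at 757 and 862 FPKM in Ctrl and 1203 and 1248 FPKM in HuR-FKO (0.60 ± 0.13, limma adjusted p = 0.328). Etfa, which takes up its electrons, was at 691 and 787 FPKM in Ctrl and 989 and 1026 FPKM in HuR-FKO (0.45 ± 0.13), and Acadvl, for very long chains, at 918 and 997 FPKM in Ctrl and 1286 and 1255 FPKM in HuR-FKO (0.41 ± 0.12). These 3 were separated between the groups with close replicates. The nuclear receptor Ppara, which drives the pathway, was at 12.4 and 9.28 FPKM in Ctrl and 21.4 and 15.1 FPKM in HuR-FKO (0.70). Pex11a, of peroxisome division, was the lower one at 34.3 and 31.8 FPKM in Ctrl and 20.7 and 22.8 FPKM in HuR-FKO (-0.58 ± 0.13). In eWAT and iWAT the medians of the same list were 0.09 and 0.43. In brown fat it was 0.06 without Ctrl 1 and 0.09 without HuR-FKO 2.

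Within the tricarboxylic acid cycle, neighbouring steps differed in direction. Dlst is the succinyltransferase of the 2-oxoglutarate dehydrogenase complex, and the next step is succinyl-CoA ligase, made of Suclg1 with Sucla2 or Suclg2. Dlst (chr12:85110833-85134845) was at 328 and 377 FPKM in Ctrl and 155 and 164 FPKM in HuR-FKO (-1.14 ± 0.13, limma adjusted p = 0.254), and it passed in the 16-library fit (adjusted p in limma = 0.00271). Suclg1 was at 532 and 554 FPKM in Ctrl and 868 and 862 FPKM in HuR-FKO (0.67 ± 0.12, limma adjusted p = 0.322) and Sucla2 at 574 and 783 FPKM in Ctrl and 971 and 1082 FPKM in HuR-FKO (0.61 ± 0.18). Dlat, the corresponding acetyltransferase of pyruvate dehydrogenase, was at 353 and 385 FPKM in Ctrl and 274 and 275 FPKM in HuR-FKO (-0.42 ± 0.12, limma adjusted p = 0.409). The list as a whole had a median of 0.05 (0.15 without Ctrl 2 and 0.001 without Ctrl 1), with 17 of 26 higher, so the low Dlst was not general to the list.

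Hexokinases also differed in direction. Hk2, the insulin-responsive form, was at 169.7 and 135 FPKM in Ctrl and 91.9 and 83.96 FPKM in HuR-FKO (-0.78 ± 0.16, limma adjusted p = 0.322) and Hk1, the form of most tissues, at 8.23 and 6.49 FPKM in Ctrl and 12.9 and 13.3 FPKM in HuR-FKO (0.76 ± 0.16), the latter passing in the 16-library fit (adjusted p in limma = 0.0145). Hk2 remained the more abundant by FPKM in every library. The insulin-responsive transporter Slc2a4 was at 239 and 240.2 FPKM in Ctrl and 179.9 and 163 FPKM in HuR-FKO (-0.48, limma adjusted p = 0.386). Creatine kinases showed the same kind of contrast: Ckb, the brain form that brown fat uses in a futile cycle, was at 12.6 and 12.7 FPKM in Ctrl and 25.3 and 35.7 FPKM in HuR-FKO (1.18 ± 0.19, adjusted p in limma over 16 libraries = 0.0291), whereas the sarcomeric mitochondrial Ckmt2 was at 55.4 and 20.8 FPKM in Ctrl and 13.6 and 14.4 FPKM in HuR-FKO (-1.22) beside the muscle genes. Genes of futile cycles outside Ucp1 were higher in 6 of 14 cases and lower in 8, with a median of -0.13 (0.02 without Ctrl 2).

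**Figure D4:**
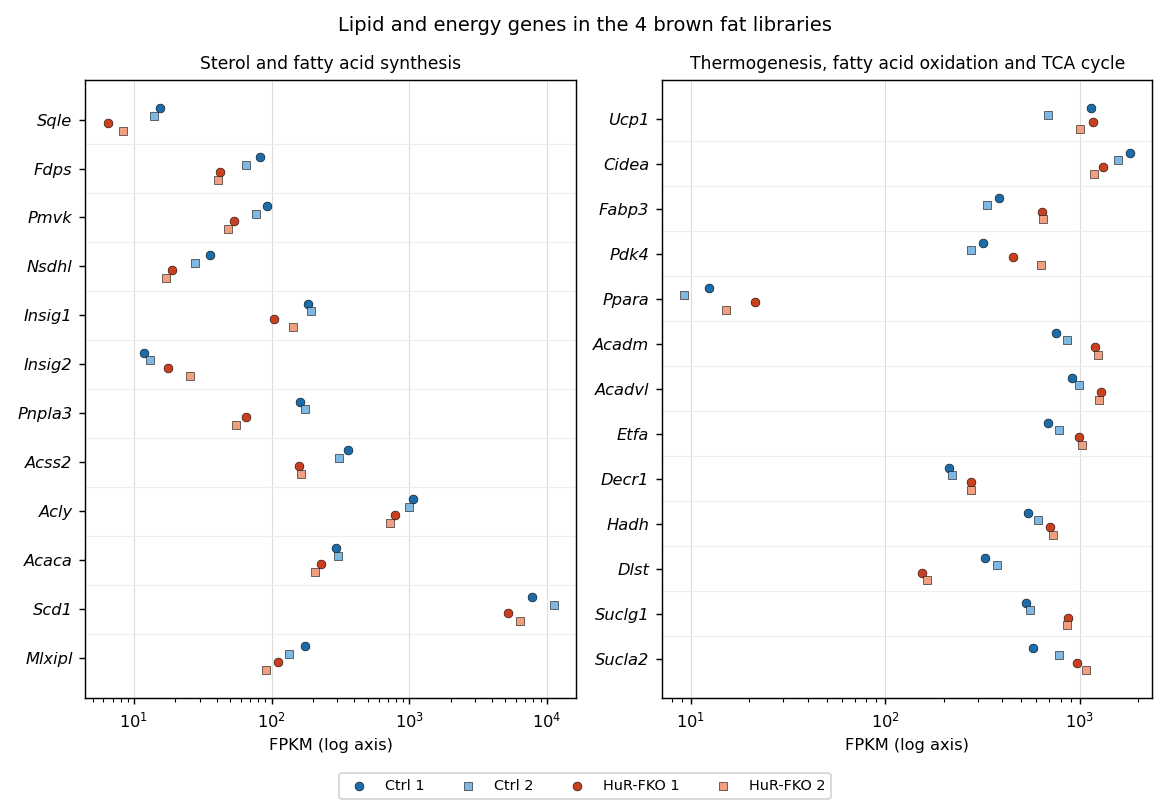
FPKM on a log axis for 25 genes of lipid synthesis (left) and of thermogenesis, oxidation and the TCA cycle (right) in the 4 brown fat libraries, symbols as for the muscle genes. The HuR-FKO libraries lie to the left of both Ctrl libraries for all left-hand genes except Insig2. These genes are a selection. In the full lists this held for 17 of 25 sterol and 14 of 28 fatty acid synthesis genes, against 26.6% of all genes. Another 3 and 4 had both HuR-FKO libraries above both Ctrl libraries. On the right they lie to the left for Dlst and Cidea and to the right for Fabp3, Acadm and Suclg1, and Ucp1 overlaps.

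The 9 mitochondrially encoded subunits with values were all higher, with a median of 0.28 (0.17 without Ctrl 2), and 7 of them had both HuR-FKO libraries above both Ctrl libraries. A single one had a nominal p under 0.05. FPKM are relative to the library. After each library was scaled without the mitochondrial and muscle genes, the median of all genes was 0.02 in place of -0.05.

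General adipocyte genes were near the median of all genes, at -0.06 for 30 tested, with 11 higher and 19 lower. Fabp4 (13078 and 12266 FPKM in Ctrl and 12375 and 11856 FPKM in HuR-FKO) and Pparg (109 and 121 FPKM in Ctrl and 116 and 121 FPKM in HuR-FKO) overlapped between the groups. A pair of secreted or lipid-binding members stood apart. Rbp4, the retinol carrier, was at 120.1 and 119.9 FPKM in Ctrl and 43.4 and 48.8 FPKM in HuR-FKO (-1.36 ± 0.13, adjusted p in the 16-library limma fit = 0.00271), and Fabp5, the second fatty acid binding protein of adipocytes, at 165 and 161 FPKM in Ctrl and 71.9 and 82.3 FPKM in HuR-FKO (-1.07 ± 0.13, limma adjusted p = 0.275). Pck1, which makes glycerol for triglycerides, was at 774 and 631 FPKM in Ctrl and 1019 and 1106 FPKM in HuR-FKO (0.60 ± 0.15). Cebpb, an early adipogenic factor, was at 147 and 103 FPKM in Ctrl and 94.8 and 95.4 FPKM in HuR-FKO (-0.37, limma adjusted p = 0.62). White fat selective genes were lower in 10 of 13 cases with a median of -0.15, which was 0.16 without Ctrl 2, 0.03 without HuR-FKO 1 and -0.52 without Ctrl 1. The list was led by resistin, Retn, at 91.2 and 151 FPKM in Ctrl and 56.8 and 74.4 FPKM in HuR-FKO (-0.84). In that list Lep was at 10.6 and 43.3 FPKM in Ctrl and 12.8 and 14.2 FPKM in HuR-FKO, with Ctrl 2 above the other libraries.

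The gene with the largest increase was Ptgds, the lipocalin-type prostaglandin D synthase, at 11.7 and 14.3 FPKM in Ctrl and 73.1 and 104 FPKM in HuR-FKO. Both HuR-FKO libraries were several times above both Ctrl libraries (log2 fold change 2.66 ± 0.21, limma adjusted p = 0.198), and the ratio was 6.31 with a 95% interval of 4.37 to 9.12. It passed in the 16-library fit (adjusted p in limma = 0.0208), and its log2 fold changes in eWAT and iWAT were 0.56 and 0.73. Among other secreted factors Kng2, a kininogen that shares sequence with Kng1, was at 49.2 and 51.2 FPKM in Ctrl and 90.96 and 83.4 FPKM in HuR-FKO (0.78 ± 0.13), and Angptl4, an inhibitor of lipoprotein lipase, at 45.8 and 51.4 FPKM in Ctrl and 69.1 and 75.3 FPKM in HuR-FKO (0.56 ± 0.13). The acute phase proteins Orm1 and haptoglobin, Hp, were lower at 199.97 and 202 FPKM in Ctrl and 131 and 138 FPKM in HuR-FKO (-0.57) and 745 and 829 FPKM in Ctrl and 542 and 557 FPKM in HuR-FKO (-0.51). Hsd11b1, which regenerates active glucocorticoid inside the cell, was at 148 and 209 FPKM in Ctrl and 50.9 and 66.97 FPKM in HuR-FKO (-1.57 ± 0.22, adjusted p in limma over 16 libraries = 0.0143). Its log2 fold change was -0.96 in eWAT and -0.62 in iWAT. The glucocorticoid response list had 12 of 18 genes higher, with a median of 0.16 that fell to 0.003 without Ctrl 1 and to -0.17 without HuR-FKO 2.

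Interferon-stimulated genes were higher in HuR-FKO brown fat. Interferons act through interferon regulatory factors to raise antiviral proteins, among them the guanylate-binding and immunity-related GTPases. Of 33 tested, 26 were higher with a median of 0.37. Both HuR-FKO libraries lay above both Ctrl libraries for 16, against 14.8% of all genes, and 11 were higher and 0 lower at a nominal p under 0.05. Iigp1, an immunity-related GTPase, was at 3.93 and 5.97 FPKM in Ctrl and 15.01 and 18.6 FPKM in HuR-FKO (1.59 ± 0.22, adjusted p in the 16-library limma fit = 0.0099). Igtp, of the same family, was at 7.2 and 10.2 FPKM in Ctrl and 16.2 and 18.4 FPKM in HuR-FKO (0.94 ± 0.19), and Tap1, the peptide transporter of antigen presentation, at 4.201 and 3.67 FPKM in Ctrl and 7.46 and 6.57 FPKM in HuR-FKO (0.70 ± 0.15). The chemokine Cxcl9 was at 4.11 and 3.94 FPKM in Ctrl and 7.15 and 10.9 FPKM in HuR-FKO (0.97 ± 0.21) and Gbp2, a guanylate-binding protein, at 11.005 and 15.6 FPKM in Ctrl and 22.7 and 24.2 FPKM in HuR-FKO (0.79 ± 0.19), and both passed in the 16-library fit. Family members of both kinds of GTPase are similar in sequence, so single genes are less certain than the group. Isg15, a ubiquitin-like protein, was at 4.15 and 4.47 FPKM in Ctrl and 7.58 and 6.78 FPKM in HuR-FKO (0.62). Summed FPKM of the list did not follow, at 1217 and 1468 in Ctrl and 1133 and 1375 in HuR-FKO, since a few abundant members carry the sum. Without Ctrl 1 the median was 0.17 and without Ctrl 2 it was 0.52. In eWAT the median was 0.20, with 30 of 33 higher, and in iWAT 0.13, with 24 of 33 higher.

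Promoters of interferon-stimulated genes often carry the repeat that interferon regulatory factors bind (GAAA, any pair of bases, GAAA). It occurred, on either strand, in the 250 bases before the start of 15 of 27 list genes with a sequence (55.6%) and of 3.46% of all 27025 genes, and in none of the 57 muscle or 18 sterol genes. The 3 shown are genes of the higher group (RefSeq, GRCm38.p6), with the repeat in capitals as it reads on the gene's strand. In Isg15 several matches overlap and form 1 stretch.
Igtp (chr11:58199306-58199555, plus strand): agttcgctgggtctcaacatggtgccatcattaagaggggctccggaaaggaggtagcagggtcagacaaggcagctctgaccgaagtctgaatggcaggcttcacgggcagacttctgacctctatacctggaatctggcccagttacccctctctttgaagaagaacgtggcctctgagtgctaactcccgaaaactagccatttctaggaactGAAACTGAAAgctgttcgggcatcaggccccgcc
Gbp2 (chr3:142620413-142620662, plus strand): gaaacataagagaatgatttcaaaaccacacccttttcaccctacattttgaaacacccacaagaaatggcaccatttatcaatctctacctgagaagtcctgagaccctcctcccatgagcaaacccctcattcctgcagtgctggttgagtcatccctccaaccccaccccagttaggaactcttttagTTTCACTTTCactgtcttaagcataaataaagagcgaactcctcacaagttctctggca
Isg15 (chr4:156200819-156201068, minus strand): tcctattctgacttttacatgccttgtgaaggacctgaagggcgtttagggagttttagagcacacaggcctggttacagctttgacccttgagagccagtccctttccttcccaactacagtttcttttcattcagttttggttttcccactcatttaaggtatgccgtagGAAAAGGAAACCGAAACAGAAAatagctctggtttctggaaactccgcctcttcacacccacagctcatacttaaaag
The list had been chosen for interferon response, so such a share describes the list and not the libraries.

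Immune cell markers were not clearly apart. Of 19 macrophage and monocyte genes, 16 were higher with a median of 0.21, but none had both HuR-FKO libraries above both Ctrl libraries or a nominal p under 0.05. The median was -0.34 without Ctrl 1, -0.26 without HuR-FKO 2 and 0.73 without Ctrl 2. Their summed FPKM was 82.4 and 221 in Ctrl and 111 and 227 in HuR-FKO, library 2 being high in both groups. The T cell markers Cd3e, Cd3g and Cd8a summed to 0.205 and 0.713 FPKM in Ctrl and 2.56 and 0.526 FPKM in HuR-FKO, whereas Trac, the constant part of the T cell receptor alpha chain, was at 2.41 and 3.82 FPKM in Ctrl and 0.308 and 1.40 FPKM in HuR-FKO. B cell markers summed to 0.755 FPKM or less. Genes for antigen presentation on MHC class II had a median of 0.02, which ranged from -0.18 to 0.26 over the libraries left out. The part of immune cell content in the interferon genes was not tested.

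Immediate early genes, which cells switch on within minutes of a stimulus, were higher in 15 of 20 cases with a median of 0.26, and 6 were higher and 0 lower at a nominal p under 0.05. Egr1 was at 6.11 and 4.73 FPKM in Ctrl and 26.7 and 17.5 FPKM in HuR-FKO (1.82 ± 0.24, limma adjusted p = 0.275), Jun at 14.7 and 13.99 FPKM in Ctrl and 23.1 and 23.1 FPKM in HuR-FKO (0.65 ± 0.13) and Fosb at 0.099 and 0.626 FPKM in Ctrl and 1.36 and 4.03 FPKM in HuR-FKO (1.37 ± 0.41). All 3 are transcription factors, and in each both HuR-FKO values lay above both Ctrl values. Endothelial genes were higher in 17 of 21 cases with a median of 0.19, of which Pecam1 (24.995 and 31.8 FPKM in Ctrl and 41.2 and 37.2 FPKM in HuR-FKO), Esam (27.1 and 22.7 FPKM in Ctrl and 32.7 and 32.6 FPKM in HuR-FKO) and Cdh5 (37.9 and 37.9 FPKM in Ctrl and 50.7 and 45.1 FPKM in HuR-FKO), all of them adhesion proteins of vessel walls, had a nominal p under 0.05. Red cell genes were higher in 6 of 7 cases with a median of 0.48. Alas2, the first enzyme of heme synthesis in red cells, was at 5.56 and 6.34 FPKM in Ctrl and 9.17 and 8.799 FPKM in HuR-FKO (0.52), and the summed red cell markers stood at 898 and 836 FPKM in Ctrl and 1310 and 1105 FPKM in HuR-FKO. The globin genes are near-identical pairs whose reads cannot be told apart with certainty.

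Fibroblast and matrix genes were lower in 20 of 27 cases, with a median of -0.25, and 1 had a nominal p under 0.05, Col15a1 at 13.2 and 12.4 FPKM in Ctrl and 8.42 and 7.92 FPKM in HuR-FKO (-0.59 ± 0.13). The direction of this median turned with single libraries, being 0.30 without Ctrl 2, 0.13 without HuR-FKO 1 and -0.65 without Ctrl 1. Col1a1, the main fibrillar collagen, was at 14.1 and 61.6 FPKM in Ctrl and 12.5 and 28.4 FPKM in HuR-FKO and Gsn, gelsolin, at 223 and 528 FPKM in Ctrl and 194 and 295 FPKM in HuR-FKO. Those spreads between the Ctrl pools were as wide as the differences between the groups.

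The study lists transcripts as bound by HuR from an immunoprecipitation in eWAT, and their binding in brown fat was not measured. In the brown fat libraries these transcripts were close to all other genes. Of 200 listed, 196 were tested, 77 were higher and 119 lower, and the median was -0.04 against -0.05 for all genes. At a nominal p under 0.05, 2 were higher and 15 lower, against 2.89% and 6.75% of all genes. In the 16-library fit 3 passed: Dlst (described above), Mcur1, a regulator of mitochondrial calcium uptake, at 33.9 and 41.8 FPKM in Ctrl and 22.4 and 22.3 FPKM in HuR-FKO (-0.73 ± 0.15, adjusted p in limma = 0.0323), and As3mt, an arsenite methyltransferase, at 5.11 and 4.77 FPKM in Ctrl and 9.92 and 10.01 FPKM in HuR-FKO (0.88 ± 0.14, adjusted p in limma = 0.0166). Mcur1 had similar log2 fold changes of -0.72 in eWAT and -0.66 in iWAT. HuR binds AU-rich elements, whose core is ATTTA. The core is frequent, at 65.2% of 21028 genes with an annotated 3′ UTR, and the longer ATTTATTTA occurs in 6.16%. Insig1 holds 4 cores and no longer element in a 3′ UTR of 1842 bases, and Dlst 1 core in 1335 bases. The first core of each is shown with its flanks, from bases 76 to 100 of the Insig1 and 1274 to 1298 of the Dlst 3′ UTR (GENCODE vM21, core in capitals). A core is a match of letters and not a bound site. The study tested 2 U-rich fragments of the Insig1 3′ UTR for HuR binding, and the cores were not compared with them.
Insig1: tcaatgttccATTTAggctgggctg
Dlst: taactaaaatATTTAaagagactga

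The 71 genes of the 16-library fit were mostly of low to middle abundance, and 3 of them belonged to the muscle lists. Of the 59 that were also tested in both white depots, 49 had the same sign in all 3 depots. The share over all genes is not given here, so this count has no background to be read against. The comparisons in the depots use different libraries, and their values are set side by side in the plot of 23 of the 24 genes of smallest adjusted p. Stk38 (chr17:28970880-29007995), a kinase of the Hippo pathway family, was at 42.7 and 44.7 FPKM in Ctrl and 108 and 111 FPKM in HuR-FKO (1.30 ± 0.12, limma adjusted p = 0.198), a ratio of 2.47 with a 95% interval of 2.001 to 3.04. In eWAT its log2 fold change was 1.63 (adjusted p in limma = 0.00266) and in iWAT 1.07 (adjusted p in limma = 0.0429), so it was higher in every depot. Tnpo2, a nuclear import receptor, was at 12.7 and 11.98 FPKM in Ctrl and 5.4 and 4.704 FPKM in HuR-FKO (-1.14 ± 0.14). Its log2 fold change was -0.95 in eWAT (adjusted p in limma = 0.0404) and -0.44 in iWAT. For Dlst these values were -0.94 (adjusted p in limma = 0.0244) and -0.62. Cox6b2, the testis form of a cytochrome oxidase subunit, was at 4.17 and 5.61 FPKM in Ctrl and 18.4 and 16.7 FPKM in HuR-FKO (1.67 ± 0.17, adjusted p in limma over 16 libraries = 0.000616). White fat showed log2 fold changes of 0.15 and 0.45 for it. Nipsnap1, a mitochondrial protein, was at 9.602 and 9.46 FPKM in Ctrl and 22.9 and 21.97 FPKM in HuR-FKO (1.15 ± 0.13), Slc29a1, a nucleoside transporter, at 44.4 and 44.6 FPKM in Ctrl and 80.2 and 75.8 FPKM in HuR-FKO (0.79 ± 0.12) and Rnf146, a ubiquitin ligase, at 68.3 and 75.5 FPKM in Ctrl and 40.8 and 42.2 FPKM in HuR-FKO (-0.78 ± 0.13), with eWAT log2 fold changes of 0.21, -0.14 and 0.15. These genes were chosen after their values were seen. Hist1h4h, a histone H4 gene with near-identical copies, was at 15.5 and 18.6 FPKM in Ctrl and 36.7 and 36.9 FPKM in HuR-FKO with log2 fold changes of 1.07, 1.09 and 0.99 in BAT, eWAT and iWAT, and its reads could not be assigned with certainty.

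**Figure D5:**
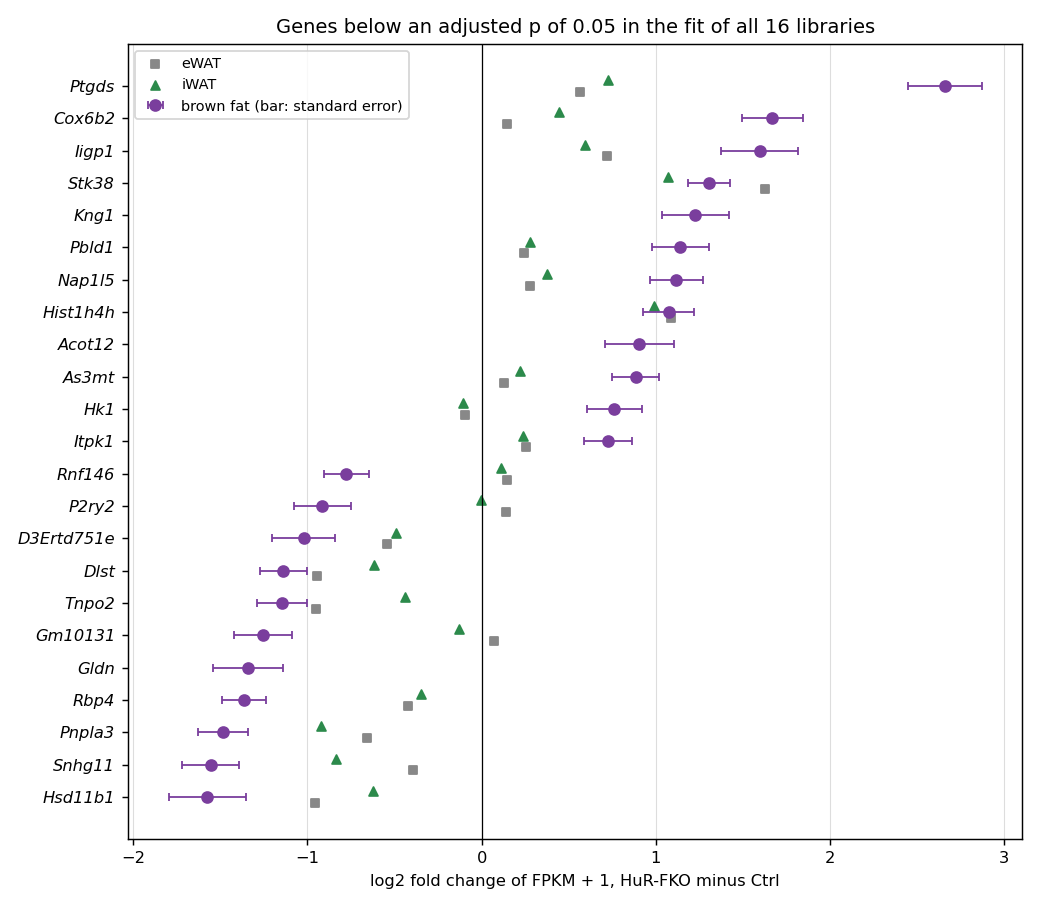
Log2 fold change of FPKM + 1 (HuR-FKO minus Ctrl, x axis) in brown fat (circles, bar for the standard error), eWAT (squares) and iWAT (triangles) for the 12 higher and 11 of the 12 lower genes of smallest adjusted p in the 16-library fit. A missing square or triangle means that the gene was not tested in that depot. Stk38 is right of 0 in all 3 depots and Dlst and Tnpo2 left of 0, whereas Cox6b2 stands at 1.67 in brown fat and at 0.15 and 0.45 in white fat.

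A test of the difference itself compared the HuR-FKO effect in brown fat with that in each white depot. Against eWAT 2 of 12657 genes passed (0.0158%), both with a negative difference, and 1 of them was not expressed in brown fat. Smyd1 had a difference of -2.55 on the log2 scale, and Gm20458, a predicted gene that overlaps Sys1 and Dbndd2 and whose reads are therefore uncertain, -1.70, each at a limma adjusted p of 0.0345. Gm20458 was at or near 0 in every brown fat library and above the minimum of 1 FPKM only in eWAT HuR-FKO. Its difference is thus its change in eWAT and not a result about brown fat. Smyd1 was at 0.840, 0.930 and 0.578 FPKM in the eWAT Ctrl libraries and at 5.65, 4.12 and 6.76 FPKM in the eWAT HuR-FKO libraries, opposite in direction to brown fat. After median-ratio scaling neither passed, with a limma adjusted p of 0.0828 for both. Members of the 3 muscle lists had a median of -0.03 in eWAT over 29 tested. In iWAT 58 of 70 were lower, with a median of -0.68, and without iWAT Ctrl 3, the pool of high muscle share, 51 of 70 were lower with a median of -0.21, an alternative chosen after seeing the data. Against iWAT 0 of 12880 genes passed in limma (0%), and 559 (4.34%) had a nominal p under 0.05. The smallest adjusted p was 0.340, held by Elovl3, an elongase that brown fat is rich in, and Retnlg, a neutrophil gene. Elovl3 was at 88.9 and 51.9 FPKM in BAT Ctrl and 74.9 and 66.1 FPKM in BAT HuR-FKO, and at 1.24 to 1.88 and 10.3 to 15.8 FPKM in the iWAT groups. In brown fat its groups overlapped, and every brown fat library stood above every iWAT library.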

How the data were processed

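RNA was extracted from brown fat with the miRNeasy kit, and strand-specific libraries were made with the NEBNext Ultra Directional kit. Per the submitters' processing notes, the authors aligned reads to mm10 with TopHat2 2.0.11 and deposited FPKM per gene from Cufflinks 2.1.1. FPKM carry no read totals, so depth was estimated from the steps of low values and no count test was possible. Of 38371 gene IDs, 36548 matched GENCODE vM21, and 21187 were protein-coding. Protein-coding genes with a group mean above 1 FPKM were tested on log2(FPKM + 1) with limma 3.58.1 in R 4.3.3 (eBayes with trend, two-sided, Benjamini-Hochberg over all genes tested) in the 4 brown fat libraries, and by interaction against eWAT or iWAT. The added 1 understates fold changes of low genes. The fit was run on simulated data in which genes vary independently, unlike genes that vary together between pools. Its power to find effects of the sizes given here is not reported. Alternatives were another pseudocount, other minimums, 2 scalings, all gene classes, a replicate block, all 16 libraries, no trend and each library left out. Members and gene lists were chosen with earlier results of these data known. Named genes were Elavl1 and its paralogs, genes the study names for brown fat, defining cell markers, the 3 of smallest p in each list and the genes passing an interaction. A few genes under that rule are not reported here. Any other gene was chosen after its values were seen. Symbols are those of the deposited table.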

Additional observations from a re-analysis of the deposited data

Results flagged for a closer look

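Smyd1, a histone methyltransferase of striated muscle, had a HuR-FKO effect in brown fat that differed from its effect in eWAT by -2.545 on the log2 scale (limma interaction, adjusted p = 0.0345). Its log2 fold change was -0.69 in brown fat and 1.85 in eWAT, where 3 of 3 HuR-FKO libraries stood above all 3 Ctrl libraries. The predicted gene Gm20458 differed between the same depots by -1.704 on the log2 scale (limma interaction, adjusted p = 0.0345). Gm20458 was at or near 0 in all 4 brown fat libraries, at 0.00760 FPKM or less in eWAT Ctrl and at 2.12 to 2.43 FPKM in eWAT HuR-FKO. It was tested only because of that last group, so the difference is its change in eWAT. In iWAT it ranged from 0.0735 to 3.65 FPKM in Ctrl and from 0.315 to 4.42 FPKM in HuR-FKO. Groups of 2 libraries are too small for a check of single libraries that stand apart.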

How the results depend on the processing

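With 2 pools per group the main limma test called 0 genes. It called 6 over all gene classes, 46 with the replicate block, 71 over all 16 libraries and 0 to 136 with each library left out, and 0 under the remaining alternatives. The block rests on shared numbers only. Deviations of same-numbered libraries correlated at r = 0.393, which with 2 pairs is no evidence of pairing. With the block, 523 genes were higher and 1181 lower at a nominal p under 0.05 (main 316 and 739), and with a library left out these counts ranged from 110 to 884 and from 274 to 1366. The cause of these shifts was not tested.

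The muscle median ranged from -1.40 to -0.69 over the libraries left out. The sterol median was -0.49 at a minimum of 5 FPKM, -0.35 under scaling without mitochondrial and muscle genes and -0.55 to -0.38 over the libraries left out. The interferon median ranged from 0.17 to 0.52. The thermogenic median was 0.21 under the same scaling and 0.13 to 0.18 over the libraries left out. Against eWAT, 2 genes became 0 under median-ratio scaling, 0 with the replicate block and 0 to 71 with a library left out, and against iWAT 0 became at most 1.

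Of 1601 values of 124 named genes, 1512 kept direction and side of the threshold, 75 crossed to pass it and 14, of 12 genes, changed sign. Fabp4 was 0.0127 under scaling without mitochondrial and muscle genes. Over the libraries left out, log2 fold changes spanned 0 for Ucp1 (-0.0763 to 0.65), Ppargc1a (-0.0937 to 0.33), Prdm16 (-0.021 to 0.32), Pparg (-0.0359 to 0.12), Cox8b (-0.48 to 0.16), Trim63 (-0.29 to 0.77), Elovl3 (-0.33 to 0.43), Lhx8 (-0.30 to 0.45), Lep (-1.61 to 0.32), Col1a1 (-1.65 to 0.40) and Gsn (-1.14 to 0.10).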

Other observations

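Stress and housekeeping programmes of brown fat lay near the median of all genes. Antioxidant and glutathione enzymes were lower in 18 of 28 cases with a median of -0.14. Txnip, the inhibitor of thioredoxin, was at 270.3 and 254 FPKM in Ctrl and 349.9 and 479 FPKM in HuR-FKO (0.64 ± 0.18) and the mitochondrial superoxide dismutase Sod2 at 126 and 133 FPKM in Ctrl and 165 and 165 FPKM in HuR-FKO (0.35 ± 0.12), both higher at a nominal p under 0.05, whereas Gstm1, a glutathione transferase, was lower at 102 and 114 FPKM in Ctrl and 84.6 and 87.3 FPKM in HuR-FKO (-0.32). Genes of the integrated and endoplasmic reticulum stress response had a median of -0.04 over 24 tested, and heat shock genes of 0.01 over 18. Circadian clock genes were lower in 12 of 18 cases with a median of -0.16. Branched-chain amino acid catabolism, which brown fat uses as fuel, had a median of 0.05 over 21 genes, and lipolysis and lipid droplet proteins of 0.00 over 21. Schwann cell and nerve genes had a median of 0.02 over the 5 tested. With single libraries left out, the medians ranged from -0.19 to 0.18 for heat shock genes, from -0.16 to 0.24 for branched-chain amino acid catabolism and from -0.20 to -0.02 for antioxidant enzymes. None of these lists had more than 4 members on either side at a nominal p under 0.05. At that level 2 of the 18 heat shock genes were higher and 4 lower, against 2.89% and 6.75% of all genes. Lipolysis and lipid droplet proteins had 1 higher and 3 lower of 21.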
